A study of Saccharomyces cerevisiae with 50 samples.

Results

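The comparison described here sets ribosome footprints of the yeast RPL6A deletion strain against those of its wild type. Its members were taken from the sample labels, as the 2 Ribo-seq libraries of Δrpl6a and the 3 Ribo-seq libraries of the wild type (wt), which make 5 of the 50 samples in the series. Ribo-seq sequences the mRNA fragments that ribosomes protect, so its counts per gene follow how many ribosomes sit on the mRNAs of that gene. The study compared strains that each lacked 1 ribosomal protein gene (RPKO strains) with wild-type cells, and 17 Ribo-seq libraries of the wild type and 5 such strains were fitted together. In Δrpl6a the gene was replaced by a kanMX4 cassette. Both strains are haploid BY4741 of mating type MATa and share the alleles his3Δ1, leu2Δ0, met15Δ0 and also ura3Δ0. All cells grew to mid-log phase in rich glucose medium (YPD) and were given cycloheximide, which stalls elongating ribosomes, shortly before harvest. Deletion strains and wild type came from the haploid deletion collection, and the labels name a single Δrpl6a strain, so an effect of the deletion and any other difference of that isolate cannot be told apart. The table held 5666 genes. Of these, 419 have identifiers that start with YLR, which places them on the right arm of chromosome XII, and they are described apart from the other 5247.

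RPL6A and RPL6B are a pair of paralogs that encode near-identical forms of a protein of the large (60S) ribosomal subunit. Many ribosomal protein genes of yeast are kept as such pairs, and cells that lose 1 copy depend on the other for that protein. The right arm of chromosome XII also carries the rDNA, a long tandem array of the ribosomal RNA genes that RNA polymerase I transcribes in the nucleolus. RPL6B lies on this arm.

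RPL6A is YML073C, on the minus strand of chromosome XIII at positions 123227 to 124172 of assembly R64. RPL6B is YLR448W, on the plus strand of chromosome XII at positions 1028854 to 1029768. Each coding sequence spans 2 exons and 531 bases. Footprints are assigned to 1 copy only where the copies differ, so the RefSeq genome sequence was read to see how far they do. The coding sequences differed at 47 bases (91.1% identical), in 42 of 177 codons and at 10 of 176 residues. Of all 504 windows of 28 bases, the shortest fragment length the study selected, 35 (6.94%) were the same in both genes. The stretch of 30 bases within 1 exon with the most differences, and the first one with none, are shown with differing bases in capitals, 5′ to 3′ in the coding direction. The first pair covers coding bases 167 to 196 (chromosome XIII, 123562 to 123591, and chromosome XII, 1029404 to 1029433). The second covers coding bases 75 to 104 (chromosome XIII, 123654 to 123683, and chromosome XII, 1029312 to 1029341).
RPL6A, 6 differences: aGcatctagaagacaacactTtGttgAtTT
RPL6B, 6 differences: aAcatctagaagacaacactCtAttgGtCA
RPL6A, 0 differences: tcgcccacaaaagttgcgtgcctctctagt
RPL6B, 0 differences: tcgcccacaaaagttgcgtgcctctctagt
A read that lies wholly within the second stretch matches both genes, and only uniquely mapped reads entered the counts.

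The Ribo-seq libraries held 10685222 and 9406465 counts in Δrpl6a, against 11059585, 8510602 and 11611057 counts in the wild type. Replicates correlated at r = 0.999 in Δrpl6a and at 0.997 to 0.998 in the wild type (Pearson, counts across genes, which are not independent replicates), and no pair agreed within sampling noise. Genes were tested with edgeR's quasi-likelihood test, 5342 of them after the count filter, and called at an adjusted p below 0.01 with a change of more than 2-fold. Levels are CPM, counts scaled to library size with TMM factors, which were not divided by gene length. With 2 libraries of Δrpl6a the spread was estimated over all strains. The levels of the pheromone receptors fitted the labelled mating type: STE2, the receptor of MATa cells, had 426 and 429 CPM in Δrpl6a, against 419, 469 and 506 CPM in the wild type. STE3, the receptor of the opposite mating type, stayed at or under 3.77 CPM in all 5 libraries, though its mRNA changed by 1.22 (adjusted p = 0.00044). Of the 5 listed MATa markers, MFA2 was called lower, at 183 and 166 CPM in Δrpl6a, against 370, 395 and 327 CPM in the wild type (-1.06, adjusted p = 1.82e-05). The median change over these 5 markers was -0.12 in footprints and -1.02 in mRNA. MET17, the gene that the allele met15Δ0 removes, had 0 counts in both Δrpl6a libraries, against 2, 0 and 0 counts in the wild type. It had 725, 693 and 895 counts in the Ribo-seq libraries labelled Δrps27b, which goes against the met15Δ0 of that label, so comparisons with the other strains are given with and without those libraries, an alternative chosen after seeing the data.

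The deleted gene was almost without footprints. RPL6A had 6.95 and 4.83 CPM (70 and 42 counts) in Δrpl6a, against 1712, 2215 and 1930 CPM in the wild type. These residual counts were 8.36 lower on the log2 scale (SE 0.16). RPL6B, which now supplied the protein alone, had 3166 and 3271 CPM in Δrpl6a, against 1362, 1697 and 1445 CPM in the wild type. The groups did not overlap, and RPL6B footprints were higher by 1.10 on the log2 scale (SE 0.09, adjusted p = 1.58e-08). Adding both copies gave 3173 and 3275 CPM in Δrpl6a, against 3074, 3912 and 3375 CPM in the wild type. The means of this sum were 3224 ± 72.3 CPM in Δrpl6a (SD, n = 2) and 3454 ± 424 CPM in the wild type (SD, n = 3), so that Δrpl6a reached 93.4% of the wild-type level. The ranges overlapped, and the difference was smaller than the spread between wild-type libraries (exact permutation test, two-sided, p = 0.6, where 0.2 is the smallest p that 2 against 3 libraries allow). In the mRNA libraries the same sum was 2087, 1991 and 3331 CPM in Δrpl6a, against 2799, 3003 and 2777 CPM in the wild type. Replicates 1 and 2 of Δrpl6a lay below all wild-type libraries and replicate 3 above them. The means were 2470 ± 747 CPM in Δrpl6a and 2860 ± 124 CPM in the wild type (SD, n = 3 each). That is 86.4% of the wild-type level (exact permutation test, two-sided, p = 0.4, smallest possible 0.1).

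Over all genes, 156 were called (2.92% of those tested), of which 116 were higher (2.17%) and 40 lower (0.749%) in Δrpl6a. The YLR genes held 96 of the 116 higher ones and 2 of the 40 lower ones, from 398 tested. Outside YLR, 20 of 4944 tested genes were called higher and 38 lower, RPL6A itself among those 38. These counts depended on single libraries: those called higher outside YLR were 12 without Δrpl6a replicate 1 and 13 without Δrpl6a replicate 2, and those called lower were 22 without Δrpl6a replicate 2. No other chromosome arm had a median log2 change above 0.05, whereas the median over YLR genes was 0.68.

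The rise of YLR genes was limited to 1 side of the rDNA. The annotated rRNA genes of the array lie at positions 451786 to 468931 of chromosome XII in R64, a boundary that was chosen after the values along the arm had been seen and that therefore carries no test. Of the 141 tested YLR genes before it, the median log2 change was -0.05, with 0 called higher and 2 lower by edgeR (at an unadjusted p below 0.05, 18 higher and 17 lower, and DESeq2 likewise called 0 and 2). Of the 257 tested YLR genes beyond it, 96 were called higher and 0 lower (at an unadjusted p below 0.05, 229 higher and 2 lower, and DESeq2 called 101 and 0). Their median log2 change was 0.94, a 1.91-fold higher level, with quartiles of 0.72 and 1.10. Footprints of 231 of these 257 genes were higher in both Δrpl6a libraries than in every wild-type library, against 20.9% of all genes tested, 24 overlapped, and 2, GSY2 and RPS22B, were lower in both (20.3% of all genes). At an adjusted p below 0.01 without a fold minimum, 197 of the 257 were higher (6.80% of all genes tested), so that many lay just under the fold used for calling. The left arm of the chromosome (54 genes) had a median of 0.02 and the genes outside chromosome XII (4890) one of -0.04.

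**Figure D1:**
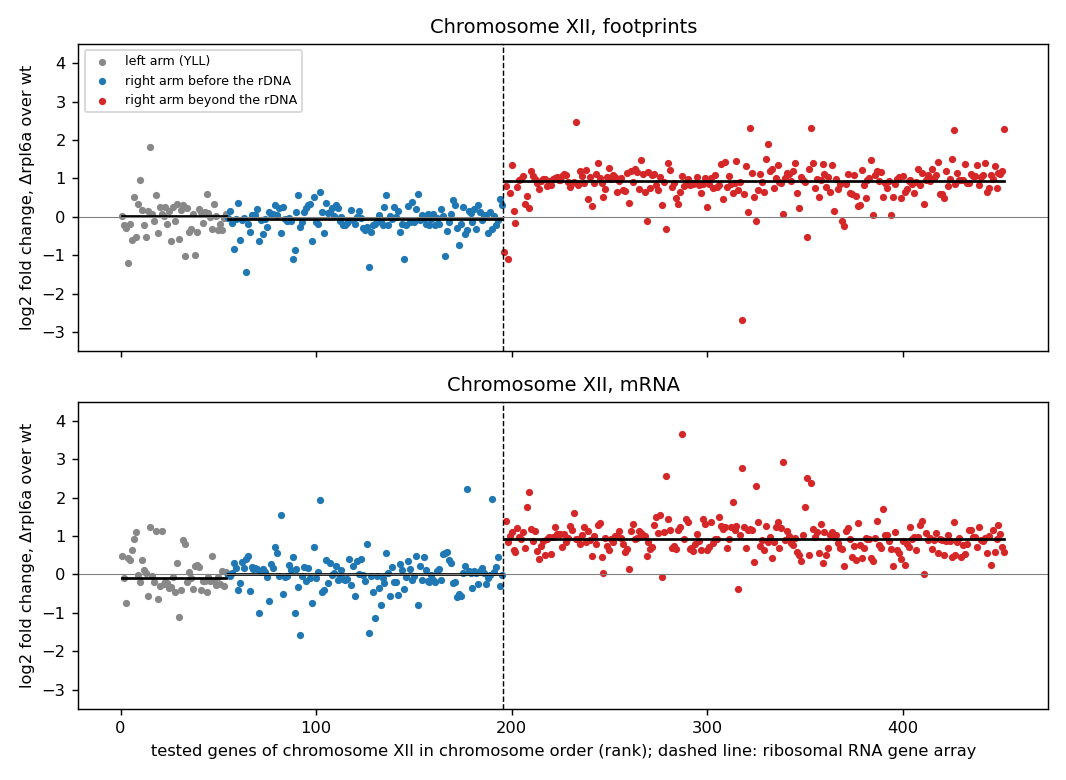
Log2 fold change of Δrpl6a over wild type for each tested gene of chromosome XII, in chromosome order (x axis, rank), for footprints (top) and mRNA (bottom). Each point is 1 gene, black lines are medians of the left arm, the right arm before the rDNA and the right arm beyond it, and the dashed line marks the rRNA gene array; beyond it the footprint median lies at 0.94, and the lowest point there is MET17, at 0 counts in both Δrpl6a libraries and at most 2 in a wild-type library.

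The step lay between the last bin of 20 tested genes before the array, with a median footprint change of 0.04, and the first bin beyond it. It was not resolved to adjacent genes. The last tested gene before the array was RNH203, a subunit of ribonuclease H2, at 447982 to 448314. The first well-expressed gene after it was MAS1, a subunit of the mitochondrial processing peptidase, at 491866 to 493254. In bins of 20 tested genes beyond the array, the median footprint change ranged between 0.79 in the first bin, which starts with retrotransposon-related YLR157W-E and ends with RPL37A, and 1.08 in the last, from RPS1A to YLR460C near the end of the chromosome. Before the array the bins ranged between -0.17 and 0.12. All bins beyond the array were therefore above all bins before it.

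Each Δrpl6a library showed the same step. The median log2 ratio of genes beyond the rDNA to the wild-type mean was 0.92 and 0.91 in the Δrpl6a Ribo-seq libraries, and between -0.10 and 0.02 in the 15 others. Of all footprint counts, 11.0% and 11.3% came from these genes in Δrpl6a, against 6.04%, 6.24% and 6.33% in the wild type. The mRNA libraries of the strain gave 0.90, 0.87 and 0.92, and 98 of 256 tested genes of the segment were called higher in mRNA (3.99% of all genes tested there, and 5.05% in either direction). Against the mean of the 4 other RPKO strains, a comparison that shares the Δrpl6a libraries but no wild-type library, the median footprint change of the same genes was 0.93, and also 0.93 without the libraries labelled Δrps27b. The number of DNA copies of this segment was not measured in these libraries.

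**Figure D2:**
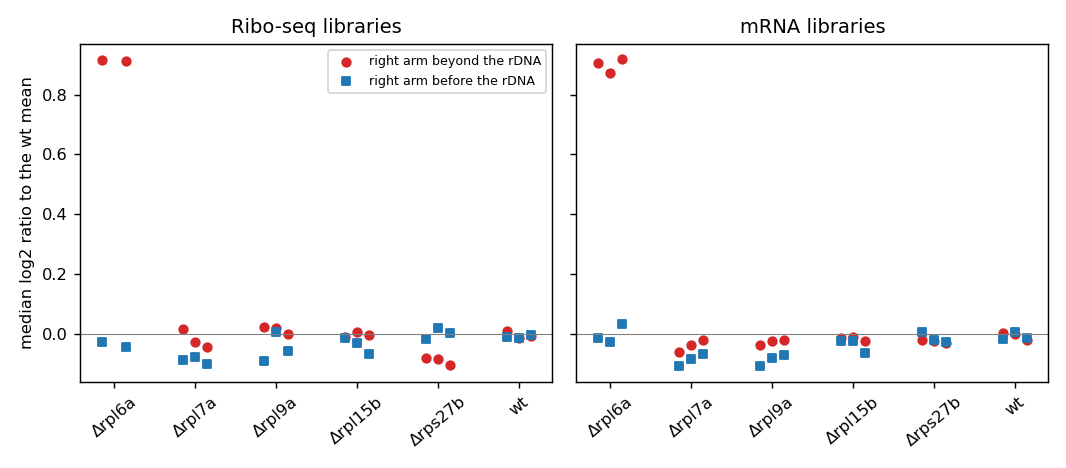
Median log2 ratio to the wild-type mean (y axis) of genes on the right arm of chromosome XII, beyond (circles) and before (squares) the rDNA, with 1 point per library and segment and strains along the x axis. Δrpl6a stands near 0.9 in both assays for the genes beyond the rDNA, and the other strains and wild type stay within 0.11 of 0.

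Among the 199 genes beyond the rDNA whose mean level reached 4 on the log2 CPM scale, the change was uniform. It lay between 0.5 and 1.5 for 181 of them, under 0.5 for 15 and above 1.5 for 3. The gene of the segment with the most footprints, without correction for length, was YEF3, translation elongation factor 3, which helps release tRNA from the ribosome. YEF3 had 22971 and 24915 CPM in Δrpl6a, against 9946, 11914 and 11861 CPM in the wild type, a log2 change of 1.09 (SE 0.08, adjusted p = 2.60e-09). ILV5, the acetohydroxyacid reductoisomerase of branched-chain amino acid synthesis, had 7753 and 8192 CPM in Δrpl6a, against 2649, 3721 and 2926 CPM in the wild type. Its log2 change of 1.36 (SE 0.11) was among the higher ones of the segment, while its mRNA differed by 0.30 (adjusted p = 0.57).

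The segment carries 13 ribosomal protein genes, whose median log2 footprint change was 0.92. Of these, 10 were higher at an adjusted p below 0.01, and 2 of the 10, RPL6B and RPS1A, passed the fold minimum. RPS1A, a small-subunit protein, had 4225 and 4492 CPM in Δrpl6a, against 1922, 2189 and 2156 CPM in the wild type (log2 change 1.06). RPL26A, RPL31B, RPL37A, RPL38, RPS25B and RPS29A changed by 0.91 to 0.97, RPS30A by 0.78 and RPS28B by 0.50. RPP0, RPS31 and RPS22B did not pass the test. RPP0, the stalk protein to which the acidic P proteins bind, had 4850 and 5456 CPM in Δrpl6a, against 3790, 4778 and 4608 CPM in the wild type (log2 change 0.23, adjusted p = 0.083). RPS31, a ribosomal protein made as a fusion with ubiquitin, had 3957 and 4346 CPM in Δrpl6a, against 3511, 4112 and 3536 CPM in the wild type, and these ranges overlapped (0.16, adjusted p = 0.29). RPS22B had 280 and 282 CPM in Δrpl6a, against 338, 336 and 323 CPM in the wild type, so its libraries lay below those of the wild type, though not past the test (-0.24, adjusted p = 0.11).

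**Figure D3:**
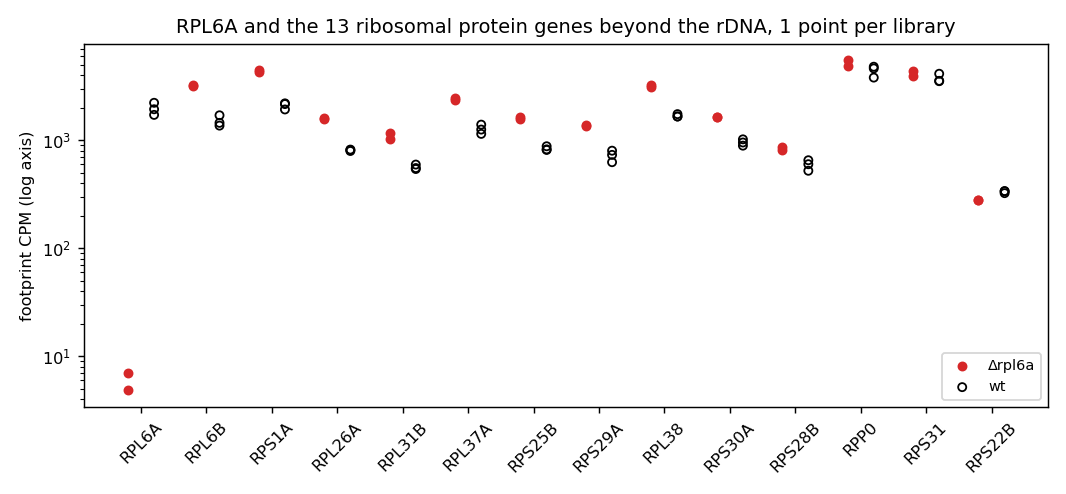
Footprint level in CPM (log axis) of RPL6A and the 13 ribosomal protein genes beyond the rDNA, with filled points for the 2 Δrpl6a libraries on the left of each gene and open points for the 3 wild-type libraries on the right. RPL6A lies at 6.95 and 4.83 CPM in Δrpl6a, RPS31 overlaps between the groups, and RPS22B lies lower in Δrpl6a at 280 and 282 CPM.

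Ribosomal protein genes elsewhere in the genome moved little. Of 121 such genes (without the deleted ones), 0 were called by edgeR and 0 by DESeq2, with 13 higher and 4 lower at an unadjusted p below 0.05. Their changes ran between -0.31 and 0.55 on the log2 scale, with medians of 0.05 over 71 large-subunit and 0.04 over 50 small-subunit genes. Reads of near-identical pairs can be lost under unique alignment, so single values of such paralogs are uncertain.

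The segment also carries single members of other groups, whose remaining members lie elsewhere in the genome. NOP56, a core protein of the snoRNPs that guide rRNA methylation, was higher by 1.12, UTP13, a subunit of the small-subunit processome, by 1.04, and DBP9, an RNA helicase of 60S assembly, by 1.05. Outside the segment, the median was 0.13 over 37 genes of 40S assembly and 0.07 over 46 genes of 60S assembly, and 0 of either list were called by edgeR or by DESeq2 (at an unadjusted p below 0.05, 11 were higher and 0 lower for 40S assembly, and 4 and 1 for 60S assembly). HCR1, the loosely bound subunit of translation initiation factor eIF3, rose by 1.02, against a median of 0.04 over 35 other initiation factor genes. Without wild-type replicate 1, UTP13 and DBP9 changed by 1.00, just under the fold minimum, and HCR1 by 0.93 without wild-type replicate 3 and 0.99 without Δrpl6a replicate 1. RPN13, a ubiquitin receptor of the proteasome, rose by 1.10, against 0.03 over 34 other proteasome genes. ATP14, a subunit of the mitochondrial ATP synthase, rose by 0.86 (adjusted p = 1.81e-06), while the median over 34 other genes of the respiratory chain was -0.40.

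The chaperone genes of the segment were HSP60, the mitochondrial chaperonin, and CPR6, a cyclophilin that binds Hsp90. HSP60 had 4425 and 5021 CPM in Δrpl6a, against 1725, 1957 and 1640 CPM in the wild type, a log2 change of 1.41 (SE 0.11). CPR6 had 1540 and 1769 CPM in Δrpl6a, against 593, 623 and 675 CPM in the wild type (1.39, SE 0.10). Of 26 chaperone genes outside the segment, 23 had a positive change, with a median of 0.32. At an adjusted p below 0.01, 6 were higher (3.26% of the genes tested outside the segment) and 1, HSP26 at -1.49, was lower (3.41% of all genes tested). The lowest value was -1.84 for HSP12, a small membrane-associated stress protein, which did not pass the test (adjusted p = 0.11). HSP82, an Hsp90 chaperone, had 1740 and 1801 CPM in Δrpl6a, against 995, 1139 and 1090 CPM in the wild type (0.72, adjusted p = 0.00059). SSA1, a cytosolic Hsp70, changed by 0.55 (adjusted p = 0.0073). BTN2, a sequestrase for misfolded proteins, had 76.6 and 86.3 CPM in Δrpl6a, against 34.2, 23.1 and 51.3 CPM in the wild type, and was called (1.16, adjusted p = 0.0029). That call for BTN2 was lost when any of 4 libraries was left out (adjusted p = 0.015 without wild-type replicate 1, 0.014 without wild-type replicate 2, 0.016 without Δrpl6a replicate 1 and 0.044 without Δrpl6a replicate 2).

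Some genes of the segment rose by more than its median, among them DIC1, the mitochondrial dicarboxylate carrier. DIC1 had 208 and 181 CPM in Δrpl6a, against 36.3, 44.3 and 36.7 CPM in the wild type. The groups were far apart, with a log2 change of 2.32 (SE 0.11, adjusted p = 1.75e-11) and one of 2.38 in mRNA. Against the 4 other RPKO strains the change of DIC1 was 1.30 (1.36 without the libraries labelled Δrps27b), and in those strains its change from wild type was 0.27 in Δrpl15b, 1.16 in Δrpl7a, 1.22 in the libraries labelled Δrps27b and 1.43 in Δrpl9a. HMX1, heme oxygenase, had 22.4 and 15.1 CPM in Δrpl6a, against 5.72, 1.35 and 2.64 CPM in the wild type (2.48, SE 0.46, adjusted p = 0.00057), a call that was lost without Δrpl6a replicate 1 (2.17, adjusted p = 0.018). ATG23, an autophagy protein, had 13.5 and 20.02 CPM in Δrpl6a, against 3.55, 2.94 and 3.84 CPM in the wild type (2.27). YLR460C, of unknown role, changed by 2.30, and TAD3, a subunit of the tRNA adenosine deaminase, by 1.51. EST2, the catalytic subunit of telomerase, changed by 1.90 at 6.85 and 6.90 CPM in Δrpl6a, against 0.694, 1.71 and 3.07 CPM in the wild type. The EST2 call was lost in the fit of only the 5 libraries (adjusted p = 0.021). It was also lost when either Δrpl6a library was left out, with log2 changes of 1.905 without replicate 1 and 1.894 without replicate 2.

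For SEN1, IKI3 and YLR460C, footprints rose by more than mRNA did. SEN1, an RNA helicase of transcription termination, had 234 and 253 CPM in Δrpl6a, against 95.0, 82.3 and 80.6 CPM in the wild type. Its footprint change of 1.5 exceeded its mRNA change of 0.46 by 1.03 in a test of the difference (adjusted p = 0.0032). IKI3, a subunit of the Elongator complex that modifies tRNA wobble bases, had 680 and 711 CPM in Δrpl6a, against 227, 247 and 269 CPM in the wild type, and its excess was 1.05 (adjusted p = 0.0048). YLR460C, at lower levels, changed by 2.30 in footprints and by 0.59 in mRNA, an excess of 1.71 (adjusted p = 0.0031). Over all genes tested, 127 (2.39%) had such a difference past both thresholds. Of the 257 genes beyond the rDNA, 7 did, 3 with more footprints than mRNA would give and 4 with fewer, and the median difference over the segment was 0.01.

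At the low end of the segment stood GSY2, which encodes glycogen synthase. GSY2 had 31.3 and 39.8 CPM in Δrpl6a, against 45.4, 45.8 and 41.2 CPM in the wild type. Both Δrpl6a libraries were lower, without passing the test (-0.31, adjusted p = 0.21). Its mRNA had 468, 557 and 124 CPM in Δrpl6a, against 78.8, 82.4 and 34.6 CPM in the wild type, a rise of 2.55, so that the difference between assays was -2.88 (adjusted p = 0.0080). TFS1, an inhibitor of carboxypeptidase Y, likewise changed by 0.23 in footprints and by 2.15 in mRNA (difference -1.93, adjusted p = 0.023). STP3, a zinc finger protein, changed by 0.29 in footprints and by 1.33 in mRNA (difference -1.04, adjusted p = 0.00014). HAP1, the heme-responsive transcription factor, changed by 0.31 in footprints and -0.08 in mRNA.

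Before the rDNA, the genes with the most footprints did not pass the test. PDC1, pyruvate decarboxylase, changed by 0.12 (adjusted p = 0.25), CCW12, a cell wall mannoprotein, by -0.19 (adjusted p = 0.30), and RPL10, a 60S protein, by 0.15 (adjusted p = 0.21). ICT1, a lysophosphatidic acid acyltransferase, had 18.7 and 18.1 CPM in Δrpl6a, against 46.0, 39.9 and 32.6 CPM in the wild type. It was called lower (-1.10, adjusted p = 6.61e-05), though its fold fell below the minimum without wild-type replicate 1 (-0.98). TEN1, a telomere capping protein, was the other gene called lower, at 2.19 and 1.496 CPM in Δrpl6a, against 3.55, 5.87 and 5.89 CPM in the wild type (-1.45, adjusted p = 0.0058). The TEN1 call was lost in the fit of only the 5 libraries, without wild-type replicates 2 or 3 and without either Δrpl6a replicate. COX12, a subunit of cytochrome c oxidase, changed by -0.86 (adjusted p = 0.0013).

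Outside YLR, several of the named genes with the largest rises encode enzymes of amino acid synthesis. Of the 20 called higher, 5 were also called higher in mRNA, and 6 had an mRNA change below 0. Of all genes tested in mRNA, 3.99% were called higher, a share that includes the genes beyond the rDNA. MET13, a methylenetetrahydrofolate reductase of methionine synthesis, had 47.5 and 50.7 CPM in Δrpl6a, against 18.4, 15.3 and 24.3 CPM in the wild type (1.33, adjusted p = 1.48e-06). SRY1, a dehydratase that degrades 3-hydroxyaspartate, changed by 1.08, a fold that dropped below the minimum without Δrpl6a replicate 1 (0.99). CIT2, the peroxisomal citrate synthase, had 142 and 136 CPM in Δrpl6a, against 62.3, 63.4 and 74.99 CPM in the wild type (1.06, adjusted p = 0.0023). The CIT2 call was lost without wild-type replicate 1 (adjusted p = 0.013), Δrpl6a replicate 1 (0.026) or Δrpl6a replicate 2 (0.018). CAR1, the arginase that breaks arginine down, changed by 1.00, at the fold minimum, and fell short of it without wild-type replicate 3 (0.85) and Δrpl6a replicate 2 (0.98), with the replicate block (0.98) and with only the 5 libraries. CAR1 is the first enzyme of the route, and CAR2, the ornithine transaminase of the same route on the segment beyond the rDNA, changed by 1.36.

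Branched-chain amino acid genes had the highest footprint median of the lists with more than 5 genes outside the segment. All 9 of its members there had a positive change, with a median of 0.84. At an adjusted p below 0.01, 6 of them were higher (3.26% of the genes tested outside the segment), and 3 were called higher (0.393%). LEU1, isopropylmalate isomerase, had 1421 and 1514 CPM in Δrpl6a, against 477, 698 and 692 CPM in the wild type. Its libraries did not overlap, which the naming rule required, and the change was 1.24 (SE 0.16, adjusted p = 8.88e-06). BAT1, the mitochondrial branched-chain aminotransferase, had 976 and 997 CPM in Δrpl6a, against 354, 501 and 537 CPM in the wild type (1.09, adjusted p = 2.57e-06). LEU9, an isopropylmalate synthase, had 269 and 278 CPM in Δrpl6a, against 111, 144 and 138 CPM in the wild type (1.07, adjusted p = 1.54e-05). Without wild-type replicate 1, the lowest of the 3 for these genes, BAT1 changed by 0.93 and LEU9 by 0.96, both under the fold minimum. LEU4, the main isopropylmalate synthase, rose by 0.91, ILV2, acetolactate synthase, by 0.84 and ILV3, dihydroxyacid dehydratase, by 0.48. ILV1, ILV6 and BAT2 changed by 0.30, 0.21 and 0.18 without passing the test. OAC1, a mitochondrial carrier of oxaloacetate and isopropylmalate that was not in the list, had 194 and 191 CPM in Δrpl6a, against 61.3, 77.7 and 89.4 CPM in the wild type (1.34, adjusted p = 1.53e-05).

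For mRNA the values of these genes were different. The median mRNA change over the 9 genes was -0.01, and LEU1 mRNA had 782, 798 and 1268 CPM in Δrpl6a, against 1259, 1240 and 1382 CPM in the wild type. The footprint change of LEU1 exceeded its mRNA change by 1.68 (adjusted p = 0.00014), that of BAT1 by 1.10 (adjusted p = 0.0014) and that of LEU9 by 1.12 (adjusted p = 0.020). Libraries of mRNA and of footprints were not stated to come from the same cultures, so a difference between cultures and one in translation cannot be told apart. In the other RPKO strains, footprints of LEU1 changed from wild type by 0.51 in Δrpl15b, 1.28 in the libraries labelled Δrps27b, 1.48 in Δrpl9a and 1.96 in Δrpl7a. All these comparisons use the same wild-type libraries, and between Δrpl6a and the mean of those strains LEU1 differed by -0.07 (adjusted p = 0.73, and -0.08 with an adjusted p of 0.71 without the libraries labelled Δrps27b).

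Over all 81 amino acid synthesis genes outside the segment, the median change was 0.25, with 66 of them positive. At an adjusted p below 0.01, 21 were higher (3.26% of the genes tested outside the segment) and 3 lower (3.41% of all genes tested). Of the 81, 5 were called higher (0.393% of the genes tested outside the segment). Medians were 0.34 over 10 arginine genes, 0.32 over 6 histidine genes, 0.26 over 9 lysine genes, 0.25 over 13 aromatic genes and 0.10 over 21 genes of sulfur and methionine metabolism. HOM2, aspartate semialdehyde dehydrogenase, rose by 0.79, ASN2 and ASN1, the asparagine synthetases, by 0.50 and 0.49, and ARO4, which starts aromatic synthesis, by 0.60. GCN4, the activator of these genes, is itself regulated by upstream reading frames; it had 56.7 and 52.7 CPM in Δrpl6a, against 38.2, 37.1 and 30.1 CPM in the wild type (0.64, adjusted p = 0.025, not called). The change of GCN4 in the other strains was -0.50 in the libraries labelled Δrps27b, 0.09 in Δrpl15b, 1.42 in Δrpl9a and 2.84 in Δrpl7a.

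All 20 aminoacyl-tRNA synthetase genes of the list, which charge tRNAs with amino acids, had a positive footprint change, with a median of 0.21. The size was small: 5 were higher at an adjusted p below 0.01 (3.26% of the genes tested outside the segment). By edgeR or DESeq2, 0 were called (at an unadjusted p below 0.05, 15 were higher and 0 lower). CDC60, the leucyl-tRNA synthetase, had 1810 and 1843 CPM in Δrpl6a, against 1143, 1250 and 1319 CPM in the wild type (0.56, adjusted p = 7.42e-06). ILS1, the isoleucyl-tRNA synthetase, changed by 0.40 and VAS1, the valyl-tRNA synthetase, by 0.36. The median mRNA change over the list was -0.02.

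PHO84 and CSS1 had the largest rises among the named genes called higher outside YLR. PHO84, the high-affinity phosphate transporter, had 51.8 and 59.7 CPM in Δrpl6a, against 2.43, 1.71 and 2.64 CPM in the wild type (4.58, SE 0.54, adjusted p = 2.10e-06). In the other strains PHO84 footprints were further from wild type, by 5.02 in Δrpl9a, 8.16 in Δrpl7a, 8.82 in Δrpl15b and 9.06 in the libraries labelled Δrps27b. All 5 strains were compared with the same wild-type libraries. PHO84 mRNA had 386, 345 and 532 CPM in Δrpl6a, against 467, 461 and 620 CPM in the wild type (-0.29, adjusted p = 0.44). Of the 16 phosphate-regulated genes, PHO84 was the only one called, and the list's median was 0.31. CSS1, a secreted protein of little known role, changed by 2.43 at 2.98 and 5.06 CPM in Δrpl6a, against 0.260, 0.489 and 1.37 CPM in the wild type. CSS1 met the level floor for naming, at a log2 CPM of 4.07, only as a mean over all fitted strains. Its change from wild type was 6.93 in the libraries labelled Δrps27b, 2.59 in Δrpl9a, 2.19 in Δrpl7a and 0.45 in Δrpl15b. In Δrpl6a and the wild type it was a gene of few counts. The CSS1 call was lost in the fit of only the 5 libraries (adjusted p = 0.028), without wild-type replicate 1 (0.020) and without wild-type replicate 2 (0.011). It was also lost without Δrpl6a replicate 2, where the log2 change was 2.015.

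**Figure D4:**
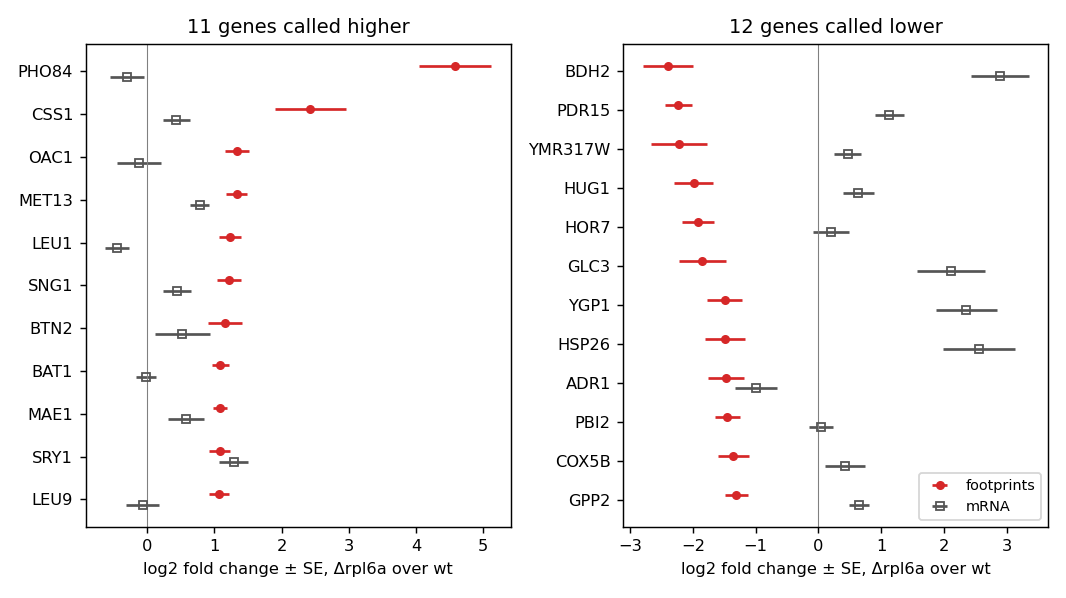
Log2 fold change of Δrpl6a over wild type with its SE (x axis) for 11 named genes called higher and 12 called lower outside YLR, with circles for footprints and squares for mRNA. Footprints and mRNA lie together for SRY1. They lie on opposite sides of 0 for PHO84, OAC1, LEU1, BAT1 and LEU9, and for all genes called lower except ADR1. For some, such as BAT1 and PBI2, the mRNA value lies within its SE of 0.

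Genes called lower outside YLR often had an mRNA change in the other direction. Of the 38, 26 had an mRNA change above 0, where the median over all genes was 0.01. In mRNA 8 were called higher and 4 lower, while 3.99% of all genes tested there were called higher and 5.05% in either direction. These shares include the genes beyond the rDNA. BDH2, a putative alcohol dehydrogenase, had 5.86 and 5.64 CPM in Δrpl6a, against 38.9, 33.3 and 19.3 CPM in the wild type (-2.40, adjusted p = 0.00015). PDR15, a drug transporter of the plasma membrane, had 36.5 and 36.1 CPM in Δrpl6a, against 235, 152 and 125 CPM in the wild type (-2.23, SE 0.21, adjusted p = 1.11e-07). HOR7, a small protein induced by osmotic stress, had 29.1 and 24.97 CPM in Δrpl6a, against 115, 119 and 74.0 CPM in the wild type (-1.92, adjusted p = 9.51e-06). For each of these genes both Δrpl6a libraries lay below all wild-type libraries, which the naming rule required. GPP2, a glycerol phosphatase of the osmotic response, changed by -1.31, PBI2, an inhibitor of vacuolar protease, by -1.45, and COX5B, the hypoxic form of a cytochrome oxidase subunit, by -1.36. The COX5B call was lost without Δrpl6a replicate 1 (-1.29, adjusted p = 0.015).

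Reserve carbohydrate and stress lists had negative median changes in footprints and positive ones in mRNA. Over 16 trehalose and glycogen genes outside the segment, the median footprint change was -0.42, with 3 called lower (0.749% of all genes tested), GLC3, PGM2 and TSL1. The calls of PGM2 (-1.12) and TSL1 (-1.03), both enzymes of the route to reserve sugars, were lost without either Δrpl6a library (adjusted p of 0.12 and 0.014 for PGM2, 0.036 and 0.093 for TSL1) and without wild-type replicate 1 (0.032 for PGM2 and 0.037 for TSL1), that of TSL1 also without wild-type replicate 2 (0.017) and that of PGM2 also with the replicate block (0.013). GLC3, the glycogen branching enzyme, had 4.87 and 5.29 CPM in Δrpl6a, against 22.1, 17.6 and 15.2 CPM in the wild type (-1.85, adjusted p = 0.0012). GLC3 mRNA had 118, 122 and 41.0 CPM in Δrpl6a, against 22.9, 26.3 and 15.7 CPM in the wild type (2.12). Over 22 stress genes the median footprint change was -0.37, with 20 of them negative and 4 called lower (0.749%), and the median mRNA change was 0.56. YGP1, a secreted glycoprotein induced on nutrient limitation, had 48.6 and 51.7 CPM in Δrpl6a, against 211, 112 and 99.9 CPM in the wild type (-1.5, adjusted p = 0.00059). HSP26, a small heat shock protein, had 21.4 and 23.2 CPM in Δrpl6a, against 78.6, 69.5 and 39.4 CPM in the wild type (-1.49, adjusted p = 0.0025). In mRNA the third Δrpl6a library stood apart from the other 2, at 24.5 CPM of YGP1 against 109 and 127 CPM. The third wild-type mRNA library was also the lowest of its group for GLC3, and for HOR7 at 392 CPM against 675 and 823 CPM. For HSP26 it was the highest, at 4.56 CPM against 3.61 and 2.73 CPM. Whether the third mRNA libraries of both strains share a difference was not tested. Without the third Δrpl6a mRNA library, and with all wild-type libraries kept, the mRNA change was 2.79 for YGP1, 2.74 for HSP26 and 2.47 for GLC3. This alternative was chosen after seeing the data. The calls of GLC3, YGP1 and HSP26 in footprints were lost when either Δrpl6a library was left out (adjusted p of 0.028 and 0.019 for GLC3, 0.017 and 0.012 for YGP1, 0.040 and 0.030 for HSP26), and that of HSP26 also without wild-type replicate 1 (0.014). Whether the cultures of the assays differed in growth stage was not tested.

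Against the mean of the 4 other RPKO strains, 4.42% of all genes were called. Of the 38 genes called lower outside YLR, 11 were again called lower, RPL6A itself among them, and 3 of the 20 were again called higher. In the other direction, 5 of the 58 were called (PHO84, HUG1, YMR317W and the cell wall genes DAN4 and PAU5). This comparison shares the Δrpl6a libraries by which the 58 genes were chosen, so it is not an independent repeat. Without the libraries labelled Δrps27b, where 5.13% of all genes were called, 23 were again lower, 3 again higher and 5 in the other direction. YMR317W and HUG1 had negative changes from wild type in all 5 RPKO strains. YMR317W, a mucin-like protein of unknown role, had 17.1 and 10.7 CPM in Δrpl6a, against 100.6, 48.8 and 45.7 CPM in the wild type (-2.22, adjusted p = 0.0011, and 0.041 without Δrpl6a replicate 2). Its change from wild type was -2.86 in Δrpl15b, -4.44 in Δrpl9a, -5.06 in the libraries labelled Δrps27b and -5.48 in Δrpl7a. HUG1, an inhibitor of ribonucleotide reductase that is induced by DNA damage, had 17.98 and 11.6 CPM in Δrpl6a, against 68.5, 68.6 and 40.2 CPM in the wild type (-1.99). The HUG1 change was -2.53 in Δrpl15b, -2.84 in the libraries labelled Δrps27b, -3.35 in Δrpl9a and -3.60 in Δrpl7a. These comparisons share the wild-type libraries. ADR1, a transcription factor of growth on non-fermentable carbon, changed by -1.47, a call lost when either Δrpl6a library was left out (adjusted p of 0.015 and 0.019). WSC4, a cell wall stress sensor, had 1.29 and 2.19 CPM in Δrpl6a, against 23.5, 23.7 and 17.7 CPM in the wild type (-3.65, SE 0.35, adjusted p = 1.23e-07), and its mRNA changed by -2.60. Cell wall genes outside the segment had a median of -0.24 over 33 genes.

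Respiratory chain genes had small negative changes. Of 34 genes outside the segment, 29 had a negative change, with a median of -0.40 in footprints and -0.34 in mRNA. At an adjusted p below 0.01, 7 were lower (3.41% of all genes tested), and 1, COX5B, was called. QCR9, a subunit of the cytochrome bc1 complex, had 12.02 and 13.8 CPM in Δrpl6a, against 30.2, 23.4 and 19.2 CPM in the wild type (-0.91, adjusted p = 0.0027). ATP20 and ATP16, subunits of the ATP synthase, changed by -0.68 (adjusted p = 0.0014) and -0.44 (adjusted p = 0.00069). Against the 4 other RPKO strains the median of the list was -0.81, and -0.87 without the libraries labelled Δrps27b. G1 cyclin and start genes also tended lower, with 13 of 14 negative outside the segment and a median of -0.33; CLN1, a G1 cyclin, changed by -0.97 (SE 0.12) and RNR1, the large subunit of ribonucleotide reductase, by -0.55, and both passed an adjusted p of 0.01 below the fold minimum.

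The median over all genes was -0.02. For further groups, the medians outside the segment were -0.10 over 21 glycolysis genes, 0.09 over 22 ergosterol genes, 0.09 over 19 purine genes, -0.06 over 27 iron-regulated genes, 0.06 over 21 amino acid permease genes, 0.19 over 13 RNA polymerase I genes (11 of them positive) and 0.03 over 19 elongation factor genes. Over 140 genes outside the segment that the study took as unambiguous Gcn4 ChIP targets, the median was 0.11, with 3 called higher and 1 lower. Of all 5085 genes tested outside the segment, 20 (0.393%) were called higher and 40 lower. IMD2, an IMP dehydrogenase of guanine nucleotide synthesis, was the only purine gene called lower, at 79.3 and 75.1 CPM in Δrpl6a, against 157, 162 and 154 CPM in the wild type (-1.03, adjusted p = 8.84e-05, and -0.99 without Δrpl6a replicate 2, under the fold minimum).

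**Figure D5:**
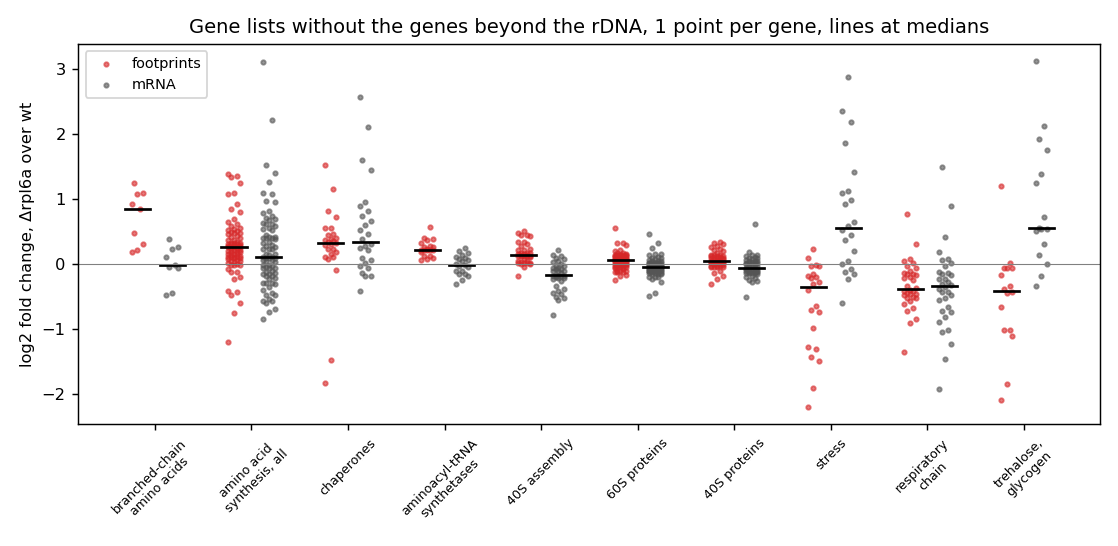
Log2 fold change of Δrpl6a over wild type (y axis) for the members of 10 gene lists (x axis), without genes beyond the rDNA on chromosome XII, with footprints in red on the left and mRNA in grey on the right of each list and lines at the medians. Branched-chain genes have a footprint median of 0.84 beside an mRNA median of -0.01, and the stress and the trehalose and glycogen lists have footprint medians of -0.37 and -0.42 beside mRNA medians of 0.56 and 0.54.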

How the data were processed

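The study's methods state that the authors trimmed adapters, used segemehl to map reads on yeast transcripts and counted those mapped uniquely, for Ribo-seq only those in coding regions with lengths of 3-base periodicity. The deposited counts were whole numbers per gene, with no normalization. Strand use in counting and the build of the transcripts are not given in the sources used. The submitters' processing notes name sacCer3 and DESeq2. Identifiers were named, and genes placed, with RefSeq's R64 tables.

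Counts of 17 Ribo-seq libraries were tested in R 4.3.3 with edgeR 4.0.16 (TMM, filterByExpr, glmQLFit, glmQLFTest, two-sided, Benjamini-Hochberg), as Δrpl6a minus wild type. The SE is the log2 change divided by the root of F. The 18 mRNA libraries had their own fit, and the difference between assays was an interaction term over 35 libraries. Library ratios used a pseudocount of 0.5 CPM. DESeq2 1.42.0, other scalings, no count filter, a fit of only the 5 libraries, a replicate block and fits without each replicate were alternatives. The fitting was tested on simulated data. Deposited columns of the authors' own fold changes were not used. Replicates are biological according to the study.

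Members, gene lists and the naming rule were chosen with earlier results of these data known. The mean log2 CPM in that rule was taken over the libraries of all fitted strains. A named gene can therefore have a low level in Δrpl6a and the wild type, as CSS1 did. Named genes were RPL6A, RPL6B, GCN4, the genotype markers, the 12 called genes with the largest rises and the 12 with the largest falls outside YLR (mean log2 CPM at least 4, no overlap of libraries), the 8 highest, 8 lowest and 6 most abundant YLR genes, and up to 4 genes per list. Genes at the boundary of the rDNA, genes at the low end of the segment beyond it and single list members outside this rule were named after their values were seen. A gene that this rule names is not reported here.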

Additional observations from a re-analysis of the deposited data

Results flagged for a closer look

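For 9 named genes the change in Δrpl6a differed from that in the 4 other RPKO strains in a test of the contrast between them, with a log2 difference (Δrpl6a minus the mean of those strains) above 1 in size and an adjusted p below 0.01. RPL6A, which the other strains carry, differed by -8.54 and its paralog RPL6B by 1.05. PHO84 differed by -3.18, HOR7 by -2.76, GPP2 by -1.61 and GLC3 by -1.35. BTN2 differed by 1.48, YMR317W by 2.24 and HUG1 by 1.09. Without the libraries labelled Δrps27b these differences kept their sign and passed the same thresholds, at -8.46 for RPL6A, 1.17 for RPL6B, -2.76 for PHO84, -3.84 for HOR7, -2.18 for GPP2, -2.53 for GLC3, 1.88 for BTN2, 2.04 for YMR317W and 1.17 for HUG1.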

How the results depend on the processing

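The count of 156 called genes was 157 with median-of-ratios scaling, 161 with scaling factors from genes outside chromosomes XI and XII, 160 without the count filter, 149 with only the Δrpl6a and wild-type libraries and 170 with DESeq2. With no fold minimum it was 545, of which 363 were higher and 182 lower (201 and 5 in YLR, 162 and 177 outside it). Without 1 library it lay between 127 (without Δrpl6a replicate 2) and 176 (without wild-type replicate 3). Genes called lower lay between 23 and 52, and outside YLR between 22 and 51, both lowest without Δrpl6a replicate 2. Genes called higher outside YLR lay between 12 (without Δrpl6a replicate 1) and 21. The count of YLR genes called lower was 1 in all 5 of these fits and also with only the Δrpl6a and wild-type libraries.

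The median log2 change of YLR genes, 0.68, was 0.70 with scaling outside chromosomes XI and XII and 0.69 without the filter, with only the 5 libraries and with DESeq2, and 0.65 to 0.71 without 1 library. Beyond the rDNA, 0.94 became 0.96 with the scaling outside chromosomes XI and XII and 0.92 to 0.95 without 1 library. Outside YLR, -0.0375 became -0.0283 with median-of-ratios scaling, -0.0287 with DESeq2, -0.0169 with the scaling outside chromosomes XI and XII, and -0.0406 to -0.0261 without 1 library. These shifts are small. Some exceed the SD between wild-type library medians (0.0121 for genes beyond the rDNA), and others, such as -0.0406 outside YLR, lie within it (0.00541 there).

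Replicate numbers recur between the strains, but only 2 pairs exist, with correlations of deviations of 0.13 and 0.00098, so the numbers were not taken as pairs. With the replicate block 154 genes were called, the YLR median was 0.70 and that beyond the rDNA 0.92. Of the 60 calls other than beyond the rDNA, 22 held in all 11 settings, and of the 96 calls beyond it 66 did. CDA1, a chitin deacetylase gene beyond the rDNA, was called by DESeq2 alone. With 2 Δrpl6a libraries the precision for genes of few counts, such as EST2 and CSS1, is limited.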
